A study of Mus musculus with 2 samples.

Results

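Mid-width domains of dimethylated lysine 79 of histone H3 (H3K79me2) are stretches of 10 to 49 kb in which chromatin immunoprecipitation reads from mouse embryonic fibroblasts lie densely, with gaps of at most 2 kb below the limit set for a dense bin. They were chosen in 1 of the 2 libraries of the series, library B6, as runs of 1 kb bins on chromosomes 1 to 19 with 12 or more distinct reads, joined over gaps of up to 2 bins. The rule found 59080 regions of any width, of which 7061 (11.95%) were 10 to 49 kb wide. These 7061 members covered 138.5 Mb, which was 42.8% of the length of all regions and 5.76% of the 2405 Mb that the reads span on the autosomes. Library B7 played no part in the choice, so every test in the results that follow uses the reads of B7, and values of B6 are given as a description.

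H3K79me2 is placed by DOT1L, the methyltransferase of this residue, which travels with the transcription machinery. The mark is known for lying over the bodies of transcribed genes, commonly highest a short way past the transcription start and fading toward the far end of the gene. It is widely used as a sign that a gene is being transcribed. No gene coordinates of the mm8 build were used here, so the members are named by position and no gene, exon or direction of transcription is assigned to them.

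Both libraries came from mouse embryonic fibroblasts, connective tissue cells cultured in DMEM with 10% serum, and both used the same antibody against H3K79me2. They form 1 group, with no treatment. Neither is an input or control library, so differences in read density that do not come from the mark could not be taken off. Strain, genotype, age and passage are not given in the sources used here, and neither is whether the cells came from separate cultures. The labels separate the libraries only by flow cell, date and the size of the fragments cut from the gel (150 to 300 bp for B6, 150 to 350 bp for B7). The labelled cell type could not be checked against marker genes. After removal of repeated starts, the autosomes held 12862946 distinct reads in B6 and 16472599 in B7, and background, the median of the 10 kb bins that hold reads, was 3.3 reads per kb in B6 and 6.7 in B7. A bin of B6 thus needed 3.64 times background to enter a region. With 1 library to test, p-values and the intervals of single members cover counting error only, unless a wider spread is named.

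The members stood above background in the library that did not choose them, at a modest level. The median member held 206 distinct reads of B7 (interquartile range 131 to 341, lowest 44, highest 1822) and 331 of B6 (200 to 564). Levels are given as fold, the reads counted plus 1 divided by the reads expected from background plus 1. The median fold in B7 was 1.74 (1.39 to 2.31), against 5.67 (4.26 to 7.64) in B6, the library in which the members were chosen. The level in B6 was also high where B7 made the choice. The 1559 mid-width regions chosen in B7, from bins of 20 or more reads, had a median log2 fold of 3.42 in B6. For the members the median log2 fold in B6 was 2.50. How much of the difference between the libraries comes from the choice was not tested. In B7, 6927 members (98.1%) lay above 1-fold, 2642 (37.4%) above 2-fold and 657 (9.30%) above 3-fold, and 128 (1.81%) lay below 1-fold. A member's fold in B6 was 3.19 times its fold in B7 at the median. Autosomal windows of 20 kb that touch no region of B6 had a median fold of 0.844 in B7 (0.652 to 1.03), and those of them with reads of B7 in every 1 kb bin had 1.01 (0.874 to 1.16).

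By an exact one-sided Poisson test against background, with Benjamini-Hochberg adjustment over all regions of the rule, 5823 members (82.5%) exceeded background in B7 at an adjusted p below 0.01. The same call was made for 22% of the regions of all widths, for 21.8% of all 20 kb windows and for 6.48% of the windows without a region, or 13.5% of those of them with reads of B7 in every bin. The members' share was thus well above each of these backgrounds, although members hold more reads than narrower regions and the test gains power with reads. The 5823 had a median width of 18 kb and a median B7 fold of 1.91. The 1238 that did not pass were narrower, at a median of 12 kb, and had a median fold of 1.17 in B7 and 3.94 in B6. When the test also allowed for the spread among windows without a region, by a negative binomial, 940 members passed, and 3614 passed when that spread came only from windows with reads of B7 in every bin. The latter windows were picked by their B7 counts, so their spread is not independent of that choice.

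Members that were strong in B6 were strong in B7 as well, with much scatter. Across the 7061 members the log2 folds of the libraries correlated with Pearson's r of 0.66 and Spearman's rho of 0.68. These points share the same 2 libraries and the same placeable sequence, and they are not independent replicates, so no p is given. Of the 1764 members with the lowest B6 fold (median 3.74), 957 (54.3%) passed the level test in B7, with a median B7 fold of 1.34. Among the 1766 with the highest B6 fold (median 9.26), 1762 (99.8%) passed, with a median B7 fold of 2.42.

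The densest members of B6 stood above background in B7 as well, but they were not the highest members there. A 12 kb member on chromosome 17 from 28817001 to 28829000 held 69.6 reads per kb in B6 and 23.8 in B7, which is 3.53-fold over background in B7 (exact Poisson 95% interval from 3.16). A 46 kb member on chromosome 8 from 114588001 to 114634000 held 66.4 reads per kb in B6 and 21.9 in B7, at 3.27-fold in B7. Chromosome 13 from 114707001 to 114742000, 35 kb wide, followed with 65.0 and 23.1 reads per kb and 3.43-fold. The other 2 of the 5 densest, of 32 kb on chromosome 8 from 73375001 and of 28 kb on chromosome 7 from 143523001, had 2.85-fold and 2.92-fold. All 5 were thus near 3-fold in B7, with adjusted p from the exact Poisson test between 1.58e-215 and 5.98e-69. Their folds in B6 lay between 18.5 and 20.6.

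The sparsest members of B6 did not behave alike in B7. An 11 kb member on chromosome 10 from 20015001 to 20026000, with 87 reads in B6, held 145 in B7, a fold of 1.95 (adjusted p = 1.66e-12, exact Poisson test). Chromosome 6 from 32812001 to 32822000 had 86 reads in B6 and 99 in B7, 1.47-fold (adjusted p = 0.000888, exact Poisson test). The 10 kb on chromosome 11 from 119843001 to 119853000, with 85 reads in B6, held 57 in B7, 0.853-fold, and did not pass. These 3 members had 5 or 6 bins under 12 reads in B6, so they were held together by the joining of gaps.

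Members taken at the median B6 density of each width class ranged from 1.34-fold to 3.84-fold in B7. The lowest, of 10 kb on chromosome 5 from 34558001 to 34568000, held 156 reads in B6 and 90 in B7 and missed the threshold (adjusted p = 0.0173, exact Poisson test). Chromosome 11 from 64960001 to 64979000 (19 kb, 360 and 178 reads) had 1.40-fold, and chromosome 5 from 64437001 to 64465000 (28 kb, 590 and 302 reads) had 1.61-fold. The highest, of 37 kb on chromosome 7 from 67216001 to 67253000, held 858 reads in B6 and 955 in B7, 3.84-fold. The widest, 47 kb on chromosome 3 from 144415001 to 144462000, had 1126 and 642 reads and 2.04-fold. All but the narrowest of these 5 passed the level test.

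The level in B7 was higher in wider members. The 2871 members of 10 to 14 kb had a median B7 fold of 1.56 (interquartile range 1.29 to 2.05), the 1528 of 15 to 19 kb had 1.75 (1.40 to 2.33) and the 1531 of 20 to 29 kb had 1.88 (1.48 to 2.43). At 30 to 39 kb (727 members) the median was 2.09 (1.65 to 2.65), and at 40 to 49 kb (404 members) it was again 2.09 (1.69 to 2.62). The 2 widest classes therefore did not differ in their medians, and all classes overlapped broadly. Spearman's rho between width and B7 log2 fold was 0.27. The median B6 fold also went up with width, from 4.63 at 10 to 14 kb to 7.22 at 40 to 49 kb. Whether width matters apart from the level in B6 was not tested. The share that passed the level test went from 70.4% in the narrowest class to 98.0% in the widest, while the median read count behind it went from 123 to 618.5.

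The members fell between the narrower and the broader regions of the same rule. Regions of 4 to 9 kb (11188) had a median B7 fold of 1.36, and 35.6% passed the level test on a median of 50 reads. Regions of 50 kb or more (819) had 2.20, and all passed, on a median of 1068 reads. Neither difference was tested, because regions of 1 library are not replicates. At the limits of the rule the values ran on without a break. Regions of 9 kb (921), just outside, had a median B7 fold of 1.47, those of 10 kb (741), just inside, 1.51, those of 49 kb (31), just inside, 2.23, and those of 50 kb (39), just outside, 2.23.

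**Figure D1:**
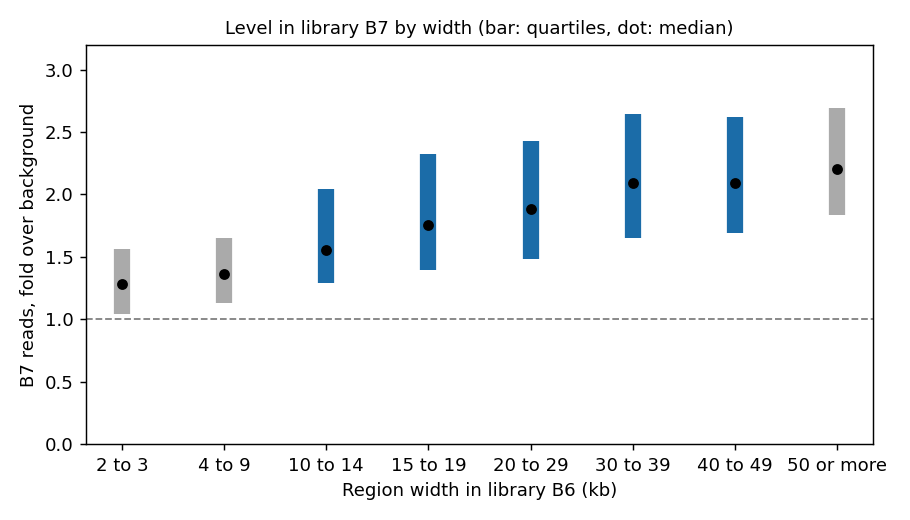
B7 reads as fold over background (y axis, linear from 0) for regions grouped by their width in B6 (x axis, kb). Bars span the quartiles over regions, dots are medians, blue bars are the members, grey bars are other widths, and the dashed line is background; the medians of the members climb from 1.56 at 10 to 14 kb to 2.09 at 30 kb and more.

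Many members held more reads toward one end. Each member was cut into a left, a middle and a right part of about equal width, with left meaning the lower coordinate, and the reads of the left and right parts were compared in B7 by an exact two-sided binomial test, adjusted by Benjamini-Hochberg over the 19068 regions of 4 kb or more. In 1810 members (25.6%) the ends differed at an adjusted p below 0.01, and the higher end was the left one in 891 and the right one in 919. The same call was made for 13.8% of all regions of 4 kb or more, for 15.2% of all 20 kb windows and for 15% of the windows without a region. In the 1810 the higher end held 2.09 times the reads of the lower end at the median (interquartile range 1.76 to 2.49). They were wider (median 22 kb) than the members as a whole (16 kb) and stood at a median B7 fold of 2.33, against 1.57 for the members whose ends did not pass.

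Most calls among the windows without a region lay in windows with empty bins. Reads of B7 were present in every 1 kb bin of 42.3% of these windows, called complete below, and of 97.3% of the members. Of the complete windows 1.85% were called (566 of 30514), at a median of 135 reads, and of the complete members 25.3% (1741 of 6868). The narrowest members, at a median of 123 reads, were called in 12.8%. The count also depends on treating reads as independent. With a beta-binomial spread taken from all windows without a region, 0 members passed (406 at an unadjusted p below 0.05), and with the spread of complete windows 454 passed (1823 at an unadjusted p below 0.05). Calls of unequal ends in single members therefore hold against counting error, and most or all of them are lost when this wider spread is allowed.

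The higher end was mostly the same end in both libraries. It agreed in 5202 of the 7061 members (73.7%), was opposite in 1653 (23.4%) and was tied in 206. In the 1810 members whose ends differed in B7, it agreed in 1757 (97.1%) and was opposite in 51. Windows without a region agreed in 59.4%, and in 90.4% where their ends differed. For windows complete in B7 these shares were 50.4% and 72.4%, against 73.5% and 97.1% for complete members. Windows without a region have under 12 reads of B6 in every bin, so their higher end in B6 rests on low counts. They were not matched to members in reads of B6, so part of their lower agreement is set by how they were drawn. Of the 1750 members whose ends in B6 differed by more than 2-fold, 1695 (96.9%) had the same higher end in B7. Over all members Pearson's r between the log2 ratios of the libraries was 0.77 and Spearman's rho 0.73, as a description over members that share their placeable sequence.

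**Figure D2:**
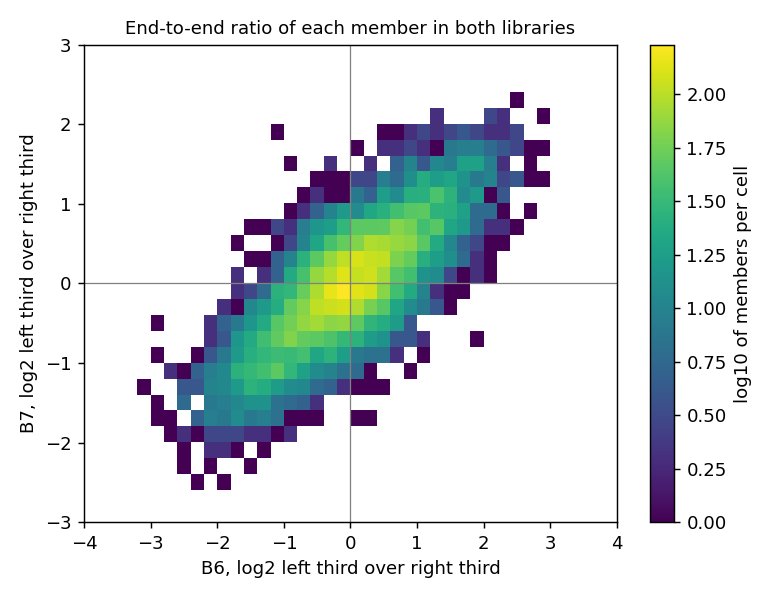
Log2 ratio of the left to the right part of each of the 7061 members in B6 (x axis) and in B7 (y axis), with colour giving the log10 number of members in each cell. Members gather along the rising diagonal, and the 1653 members with opposite higher ends lie in the upper left and lower right, mostly near 0.

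The members with the steepest ends in B6 kept the direction in B7 with a smaller ratio. An 11 kb member on chromosome 2 from 25379001 to 25390000 held 251, 101 and 33 reads of B6 in its left, middle and right parts, and 74, 40 and 17 of B7. The left part of B7 held 4.35 times the reads of the right (exact 95% interval 2.54 to 7.87, adjusted p = 2.55e-08, exact binomial test). From left to right, its 1 kb bins held 66, 128, 57, 24, 26, 14, 13, 24, 12, 8 and 13 reads in B6 and 12, 42, 20, 14, 6, 8, 5, 7, 6, 4 and 7 in B7. Both libraries were highest in bin 2 and most of their signal lay in the first 4 kb.

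Towards the right, the 20 kb on chromosome 10 from 80444001 to 80464000 held 64, 321 and 478 reads in B6 and 41, 69 and 138 in B7. Its right end was 3.37 times the left in B7 (2.36 to 4.89, adjusted p = 6.19e-12, exact binomial test), and both libraries were highest in bin 19. On chromosome 9 from 44129001 to 44139000 the parts held 163, 60 and 22 reads in B6 and 55, 36 and 17 in B7, a ratio of 3.24 (1.85 to 5.95). Chromosome 15 from 59144001 to 59160000 had 334, 123 and 50 against 107, 56 and 38, a ratio of 2.82 (1.93 to 4.19). The other member of this kind on chromosome 15, from 79343001 to 79356000, had 404, 188 and 56 against 101, 70 and 43, a ratio of 2.35 (1.63 to 3.44).

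Among the steepest toward the right, chromosome 6 from 124771001 to 124781000 held 24, 129 and 200 reads in B6 and 25, 61 and 60 in B7 (ratio 2.40, 1.48 to 3.995). On chromosome 11 from 48651001 to 48661000 the reads were 32, 58 and 238 against 35, 68 and 70 (ratio 2, 1.32 to 3.09, adjusted p = 0.00637, exact binomial test). One of the 8 did not pass in B7. Chromosome 18 from 62296001 to 62306000 held 36, 70 and 277 reads in B6 but 30, 68 and 45 in B7, a ratio of 1.5 with an interval of 0.924 to 2.47 (adjusted p = 0.332, exact binomial test). In all 8 the ratio was larger in B6 than in B7. They were chosen for their ratio in B6, and how much of the difference comes from that choice was not tested.

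The 5 members densest in B6 were lopsided too, although they were not chosen for it. The 46 kb member on chromosome 8 held 421, 1389 and 1243 reads in B6 and 135, 489 and 385 in B7, so its right part was 2.85 times its left in B7 (2.34 to 3.50, adjusted p = 1.16e-26, exact binomial test). The 12 kb member on chromosome 17 leaned the other way, with 242, 404 and 189 against 125, 110 and 51, a ratio of 2.45 (1.76 to 3.47). The remaining 3 leaned right, with ratios of 2.23, 2.10 and 2.10 in B7. All 5 passed the test of the ends in B7, and all 5 had the same higher end in B6.

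The 3 members of at least 300 reads whose ends in B6 were nearest to equal had ratios between 1.10 and 1.19 in B7. A 40 kb member on chromosome 2, from 52770001 to 52810000, held 207, 230 and 207 reads in B6 and 201, 243 and 183 in B7, a ratio of 1.10 (0.895 to 1.35). Chromosome 2 from 104603001 to 104619000 had 110, 119 and 110 against 79, 123 and 88 (1.11, 0.813 to 1.53), and chromosome 3 from 22351001 to 22370000 had 94, 118 and 94 against 77, 103 and 65 (1.19, 0.840 to 1.67). All 3 nevertheless lay above background in B7, at 2.33-fold, 2.69-fold and 1.92-fold. None of the 3 passed the test of the ends, and the intervals leave room for ratios up to 1.35, 1.53 and 1.67.

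Of the 1810 members with unequal ends in B7, 51 pointed the opposite way in B6. The clearest, 18 kb on chromosome 3 from 69085001 to 69103000, held 102, 181 and 84 reads in B6 and 74, 169 and 232 in B7, where the right part was 3.14 times the left (2.40 to 4.13, adjusted p = 2.77e-18, exact binomial test). Its highest bin was bin 9 in B6, with 63 reads, and bin 13 in B7, with 56. On chromosome 15, the 40 kb from 101902001 to 101942000 had 472, 228 and 484 reads in B6, high at both ends, and 330, 149 and 146 in B7, high at the left end alone (2.26, 1.86 to 2.77). Chromosome 3 from 38642001 to 38677000 held 554, 617 and 547 reads in B6 and 177, 396 and 365 in B7 (2.06, 1.72 to 2.48). In the latter 2 the ends of B6 differed by less than 3%, so their direction there was barely set. The members in this paragraph were picked for their values in B7.

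**Figure D3:**
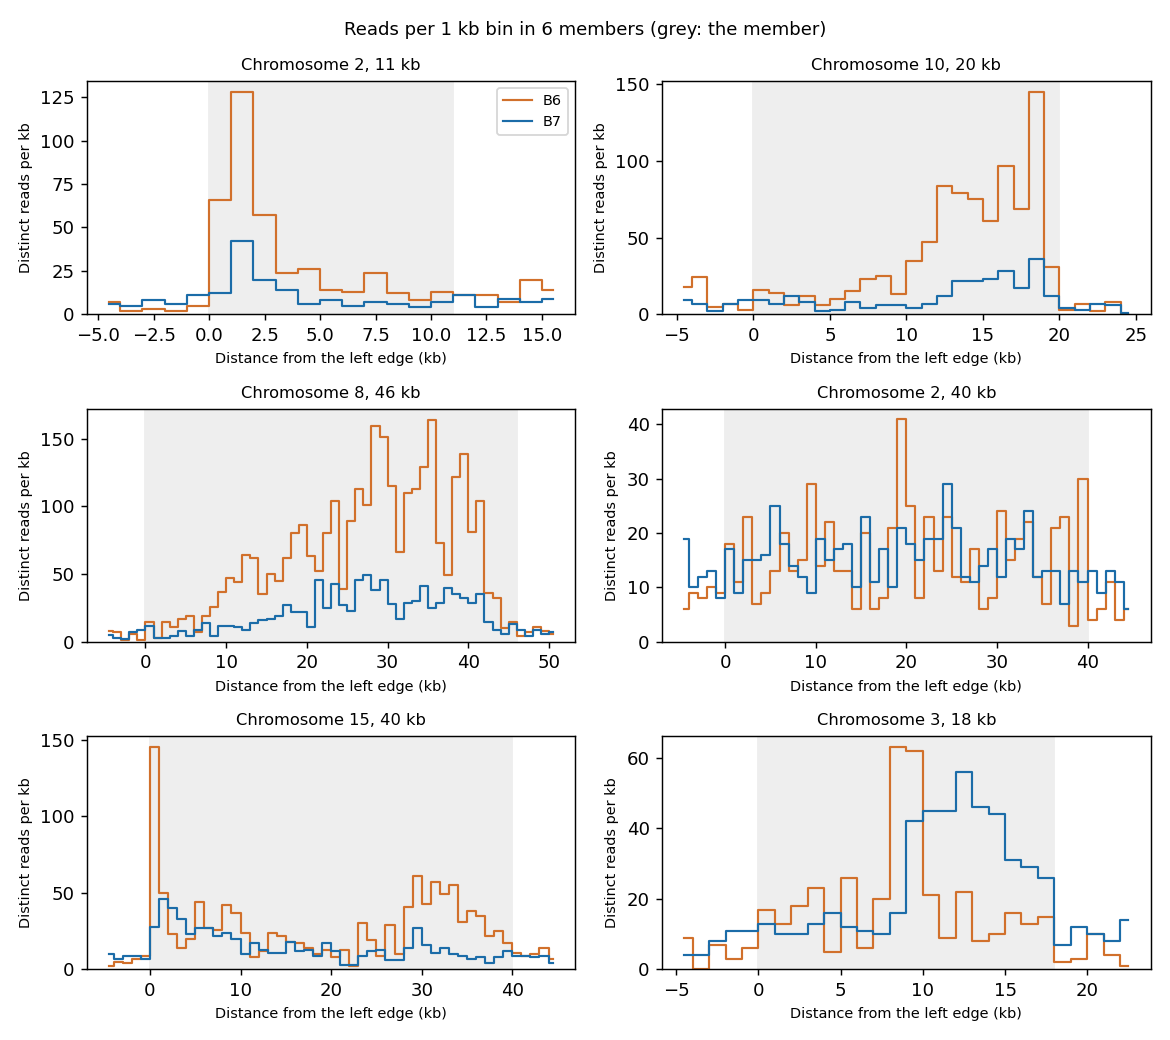
Distinct reads per 1 kb bin (y axis, linear from 0) against distance from the left edge (x axis, kb) in B6 (orange) and B7 (blue) for 6 members shaded in grey, with 5 kb on either side. The members on chromosomes 2 (11 kb), 10 and 8 slope the same way in both libraries, the 40 kb member on chromosome 2 is level in both, and those on chromosomes 15 and 3 differ between libraries.

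Turned so that the higher end of B6 came first, the members showed a common course in B7. In 10 equal segments the median fold in B7 was 1.64 in the first, 1.94 in the second and 1.98 in segment 3, and then went down steadily to 1.37 in the last. The interquartile ranges overlapped between all segments (1.40 to 3.04 in segment 3, 1.07 to 1.79 in segment 10). The highest of the 10 segments in B7 was among the first 3 in 3532 members (50.0%) and among the last 3 in 897 (12.7%). Over the members the end that was higher in B6 exceeded the other in B7 by a median log2 ratio of 0.35 (interquartile range 0.00 to 0.75), or 1.28 times. Windows without a region, turned in the same way, had a median of 0.22, and the complete ones among them 0.05, against 0.35 for complete members. The turning of these windows rests on low counts of B6, under 12 reads in every bin.

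**Figure D4:**
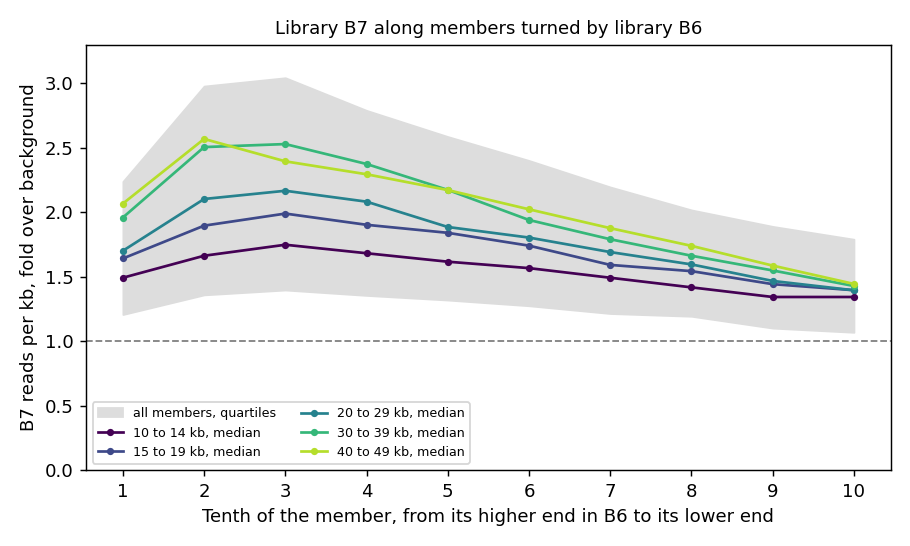
Median B7 reads per kb as fold over background (y axis) in 10 equal segments from the higher end in B6 to the lower end (x axis), for 5 width classes, with the quartiles of all members in grey and background dashed. All classes climb to segment 2 or 3 and decline to between 1.34 and 1.44 in segment 10, and the wider classes start from a higher top.

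The top of this course was higher and the decline longer in wider members. At 2 to 5 kb inside the higher end the median B7 fold was 1.69 in members of 10 to 14 kb, 1.99 at 15 to 19 kb, 2.14 at 20 to 29 kb, 2.39 at 30 to 39 kb and 2.29 at 40 to 49 kb. At 10 to 15 kb inside, it was 1.52 in members of 15 to 19 kb, 1.85 at 20 to 29 kb and 2.33 in both wider classes. In members of 40 to 49 kb it was still 2.09 at 20 to 25 kb and 1.70 at 30 to 40 kb inside. The outermost 2 kb were similar in all classes, between 1.57 and 1.72. Because a member ends where B6 drops below 12 reads per bin, low values close to either edge are part of how members were drawn.

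The 2 edges differed in B7. Outside the higher end, the mean fold in B7 was between 1.08 and 1.10 from 10 kb to 3 kb away, leaving out bins that belong to other regions, and 1.31 in the last kb before the edge. Inside, it was 1.61 in the first kb, 2.03 in the second and 2.36 in the kb from 3 to 4, after which it declined. At the lower end the mean was 1.30 in the last kb outside and 1.47, 1.49 and 1.57 in the first 3 kb inside, and it reached 2.002 at 9 to 10 kb. All members enter at each inner distance. In the 2871 members of 10 to 14 kb, 9 to 10 kb inside either edge is already past the midpoint, toward the opposite end. The step across the edge, from the last outer to the first inner kb, was 1.23 times at the higher end and 1.13 times at the lower end. In 200 bp bins the rise at the higher end was gradual, from 1.35 at 0.3 kb outside to 2.16 at 1.7 kb inside, and from 2.1 kb to 8 kb inside it stayed between 2.08 and 2.38. Since edges were set to the nearest kb in another library, a sharper feature would be blurred.

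**Figure D5:**
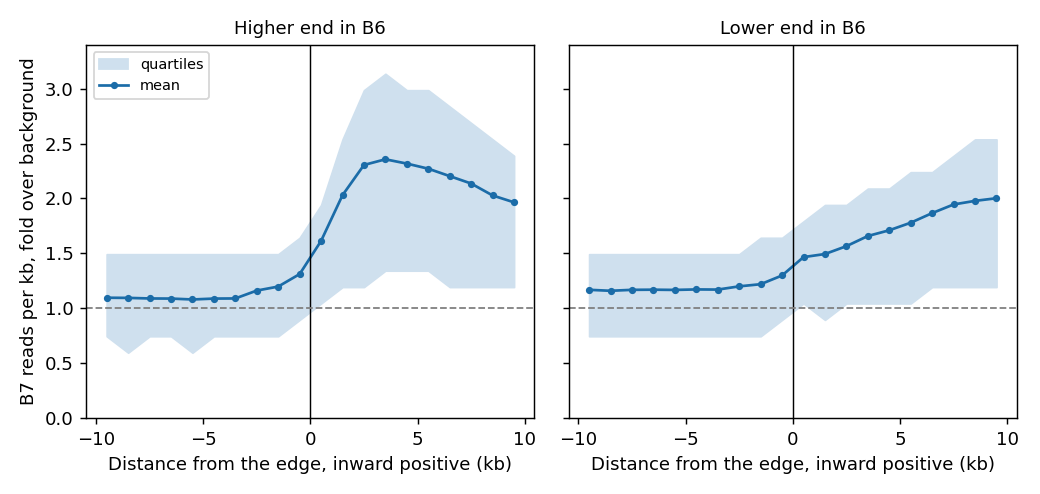
Mean B7 reads per kb as fold over background (line) and quartiles over members (shading) against distance from the edge (x axis, kb, positive inward), at the end that was higher in B6 (left) and at the lower end (right). The higher end climbs to 2.36 within 4 kb, and the lower end climbs slowly to 2.002 over 10 kb, which in members of 10 to 14 kb is past the midpoint.

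Some members were highest or lowest in the middle. The middle part was compared with both outer parts pooled, by an exact two-sided binomial test over the same 19068 regions. It was higher in 631 members (8.94%) and lower in 191 (2.71%), at an adjusted p below 0.01. The middle was higher in 4.79% and lower in 1.52% of all regions of 4 kb or more, and in 4.37% and 5.7% of all 20 kb windows. A member ends where B6 drops below 12 reads per bin, so low outer parts are part of how members were drawn. The middle was not compared with complete windows or tested with a wider spread, so its calls hold against counting error only. Of the 631 with a higher middle, 196 also had unequal ends, as did 121 of the 191 with a lower middle. Because the outer parts were pooled, a middle called higher or lower can still lie between the 2 ends. The other 4746 members (67.2%) passed neither test, on a median of 161 reads of B7. The 46 kb member on chromosome 8 had the middle higher than the ends (log2 difference in reads per kb 0.82, adjusted p = 1.60e-16, exact binomial test), and the 40 kb member on chromosome 15 from 101902001 had it lower in both libraries (log2 -0.78 in B7, adjusted p = 1.73e-07, exact binomial test). Both calls were more frequent in wider members, with a higher middle in 5.57% of members of 10 to 14 kb and 15.3% of those of 40 to 49 kb, and a lower middle in 1.22% and 6.93%.

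The share of members with unequal ends also grew with width, as did the reads behind the test. It was 12.8% at 10 to 14 kb, 23.4% at 15 to 19 kb, 34.2% at 20 to 29 kb, 48.4% at 30 to 39 kb and 52.0% at 40 to 49 kb. The same higher end in both libraries was found in 66.1%, 73.0%, 79.2%, 85.8% and 86.6% of these classes. In regions of 4 to 9 kb the ends differed in 2.47%, on far fewer reads, and in regions of 50 kb or more in 65.6%. The median size of a called difference went the other way, from a log2 ratio of 1.2496 in the narrowest members to 0.81 in the widest. Where reads are few, only large differences can pass.

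Bin by bin, the libraries followed each other within members to a limited degree. Pearson's r between the 1 kb counts of B6 and B7 was 0.34 at the median over members (interquartile range 0.10 to 0.57), and it was positive in 5815 (82.4%) and above 0.5 in 2311 (32.7%). It was 0.26 at 10 to 14 kb and 0.46 at 40 to 49 kb. In windows without a region the median was 0.19 and in the complete ones among them 0.06, against 0.33 in complete members. These windows have under 12 reads of B6 in every bin and were not matched to members in reads. The values for the members plotted bin by bin were 0.94 for the 11 kb one on chromosome 2, 0.89 on chromosome 10, 0.76 on chromosome 8, 0.34 on chromosome 15, 0.15 for the level one on chromosome 2 and 0.02 on chromosome 3. Bins of a member share their source, so these are descriptions.

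Most members held bins that were under the limit in B6 and were kept by the joining of gaps. Bridged bins, those under 12 reads in B6, made up 22.4% of the members' length (31094 bins), and 314 members (4.45%) had none. B7 stood at a mean of 1.53-fold in bridged bins, 2.15-fold in called bins, 1.31-fold in the first bin outside either edge and 0.866-fold in all bins outside regions. Bridged bins thus lay above the flanks in B7, and they hardly differed from the weakest called bins: those with 12 to 15 reads of B6 had 1.58-fold. From there the mean in B7 went to 1.85-fold at 16 to 23 reads of B6, 2.53-fold at 24 to 47 and 3.59-fold at 48 or more. The 314 members without a bridged bin had a median B7 fold of 2.53 at a median width of 14 kb, against 1.39 for the 1726 in which over 33.3% of bins were bridged, at 13 kb.

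Called by its own counts, B7 would have found few of these domains whole. Bins with 20 or more reads, 2.99 times its background, made up 18.0% of the members' length, and 0.191% of the length outside regions. At least 1 such bin was present in 4293 members (60.8%), and such bins made up 50% or more of the width in 632 (8.95%). The same rule run on B7 at 20 reads gave 1559 regions of 10 to 49 kb. Of these, 929 (59.6%) overlapped a member, while 916 members (13.0%) overlapped one of them, 662 overlapped a region of another width and 1 touched no region of B6.

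Members were spread over all autosomes, at 2.94 per Mb. Chromosomes 11 (4.73 per Mb), 17 (4.30) and 19 (4.001) were the richest and chromosome 14 (1.99) the poorest, and members covered from 3.998% (chromosome 14) to 9.50% (chromosome 11) of a chromosome's span. The level in B7 varied little between chromosomes, with medians from 1.61-fold on chromosome 17 to 1.99-fold on chromosome 3. The order by members per Mb was thus not the order by level: chromosome 17 was second in members per Mb and lowest in level.

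Members often had another member close by. The median gap to the next member was 63 kb (interquartile range 15 to 215), and 2145 of 7042 neighbouring pairs (30.5%) lay within 20 kb. In 129 of those pairs both members had unequal ends in B7. Their higher ends faced each other in 33 (25.6%), lay away from each other in 35 (27.1%) and pointed the same way in 61 (47.3%). For the 220 such pairs over 100 kb apart the shares were 25%, 20% and 55%. Close pairs therefore showed no more facing ends than distant ones, without a test of the difference.

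The closest facing pairs lay 3 kb apart, the smallest gap that the joining rule allows. On chromosome 1, a 10 kb member from 82716001 to 82726000 held 30, 102 and 80 reads of B7 in its parts, and its 26 kb neighbour from 82729001 to 82755000 held 209, 199 and 112. The gap between them was at 1.19-fold in B7 and 1.11-fold in B6, so it was a gap in both libraries. On chromosome 3, a 12 kb member from 58499001 to 58511000 held 54, 93 and 170 reads of B7, and its 16 kb neighbour from 58514001 to 58530000 held 234, 263 and 167. There the gap was at 6.47-fold in B7, 43.3 reads per kb, and at 2.53-fold in B6, 8.33 reads per kb. In B7 the latter pair was therefore continuous. Pairs were drawn only from members whose ends differed in B7, so that difference is part of their choice.

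The extremes of B7 among the members were partly in repeated sequence. The highest, 24 kb on chromosome 9 from 3015001 to 3039000, reached 11.3-fold in B7 and 6.99-fold in B6, and next came 12 kb on chromosome 4 from 3006001 to 3018000, with 6.49-fold and 15.9-fold. Both begin close to where the sequence of the chromosome starts, and reads with 2 placements lay there at 181 and 64.0 times their autosomal density in B7. The members on chromosome 3 from 58514001 (6.15-fold in B7, 4.498-fold in B6) and on chromosome 17 from 32902001 to 32913000 (6.06-fold and 17.1-fold) followed, where that density was 0.483 and 2.81 times. At the other end, chromosome 4 from 140313001 to 140326000 held 147 reads in B6 and 52 in B7 (0.602-fold). Chromosome 17 from 27921001 to 27931000 held 144 and 44 (0.662-fold), and chromosome 4 from 139824001 to 139835000 held 158 and 50 (0.683-fold). These 3 had no bin of 20 reads in B7 and 4 or 5 bridged bins each.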

How the data were processed

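The authors deposited 1 list of signed read positions per library, with reads of 1 and of 2 placements kept apart. The aligner was Bowtie (-e 70 -k 2 -m 2 -n 2 -l 36, best first) on mm8, per the file headers and the submitters' processing notes, in a version not given in the sources used here. Positions were taken as counted from 0, since the lowest autosomal ones were 3000020 (B6) and 3000000 (B7), and are printed counted from 1.

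Reads with 1 placement on the autosomes were used, 1 per position and strand, which removed 5.65% of them in B6 and 15.2% in B7. Position divided by 1000 gave the 1 kb bin. Tests were one-sided Poisson (level) and exact two-sided binomial (ends, middle) on B7. Benjamini-Hochberg adjustment at 0.01 ran over all regions (level) or over those of 4 kb or more (ends, middle). The tests of level and ends were tried on simulated Poisson counts, which lack the wider spread seen among windows. Regions printed by position follow a written rule: extremes, medians and level members by B6, then extremes, opposed ends and closest facing pairs by B7. Members, lists and rules were chosen with earlier results of these data known. Alternatives changed the bin minimum, gap, repeated starts, read position, background, threshold, depth, ends, spread and choosing library. Python 3.11.15, NumPy 2.4.6, SciPy 1.17.1 and matplotlib 3.10.9 were used.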

Additional observations from a re-analysis of the deposited data

Results flagged for a closer look

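No comparison used the reads with 2 placements, which are signal outside the main measurement. The members held 77494 distinct positions of such reads in B6 and 43097 in B7, which was 1.96 and 0.802 times their autosomal density. In 12 members the density was over 10 times the autosomal value in both libraries, and these had a median B7 fold of 2.29.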

How the results depend on the processing

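The results were 7061 members, 5823 above background in B7, a median B7 log2 fold of 0.80, 1810 members with unequal ends, 73.7% with the same higher end and a median turned log2 ratio of 0.35. With 10 reads per bin the last 2 were 69.8% and 0.28 and the log2 fold 0.59. With 15 reads the log2 fold, share and ratio were 1.06, 76.3% and 0.39. With 20 reads there were 3567 members, 3513 above background and 1136 with unequal ends, and the 3 values were 1.31, 77.3% and 0.38. With no gap joined there were 4035 members and 894 with unequal ends, with 1.27, 72.1% and 0.30, and gaps of up to 5 bins gave 0.53, 70.4% and 0.29. The log2 fold was 0.77 with all reads, 0.77 with the mean as background and 0.96 with a local one. Comparing both sides of the midpoint gave a ratio of 0.28, and narrower ends (25% of the width) a share of 71.5%. With the spread over windows without a region, 940 members were above background and 0 had unequal ends, and with that of complete windows, added after seeing the data, 3614 and 454. Fewer members pass there because the allowed spread is larger. Leaving out a library gave 1559 to 7061 members. With B6 left out, B7 chose 1559 and its members were tested in B6: 1558 were above background at a median log2 fold of 3.42, 755 had unequal ends, 71.6% had the same higher end and the turned ratio was 0.29. The remaining alternatives left counts within 1.5 times, and the log2 fold, share and ratio within their 95% intervals over members. These intervals treat members as independent, which they are not, so they serve only as a yardstick. No paired analysis was possible because both libraries belong to 1 group. With B7 thinned to the depth of B6, 1515 members had unequal ends.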

Other observations

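In 4 members the fold in B7 was at least that in B6, picked here after their values were seen. They are the 2 on chromosomes 9 and 3 given among the highest of B7 and 2 on chromosome 1. From 90043001 to 90053000 the latter held 147 reads in B6 and 408 in B7 (4.35-fold and 6.01-fold), and from 159168001 to 159180000 they held 152 and 337 (3.77-fold and 4.15-fold).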
